A study of Rattus norvegicus with 8 samples.

Results

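The genes described here encode the cytokines interleukin-1β (*Il1b*) and interleukin-18 (*Il18*) and the interleukin receptor chains *Il1r1*, *Il1rap*, *Il2rg*, *Il4r*, *Il13ra1*, *Il10ra*, *Il10rb* and *Il17ra*, which do not signal through gp130. They are 10 genes, taken by symbol, and 9 of them had a probe among the 15159 genes that could be named on the array. *Il1r1* was not matched to a probe by its transcript accessions and has no value here. They were measured in hypothalamic tissue of male F344 rats (F344N in the labels) held in short photoperiod (SD). All rats had a cannula in the third ventricle and an earlier injection of angiotensin in saline to check its placement. RA or vehicle was injected a week after that check, and tissue blocks that include the arcuate nucleus were taken a day later. The 4 treated rats received all-*trans* retinoic acid (RA), the vitamin A metabolite that acts through nuclear receptors, at 1e-05 M in the labels and at a higher concentration in the study's methods. The 4 control rats received vehicle, which is saline in the labels and DMSO in saline in the methods. Cannula, angiotensin check and photoperiod are common to both groups, and no rats without an injection were on these arrays. RNA of RA and vehicle rats was hybridised together to each of 8 arrays on 1 slide, with RA labelled with Cy5 on arrays 1, 3, 6 and 8 and with Cy3 on arrays 2, 4, 5 and 7.

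Interleukin receptors pass a signal only when several chains come together around a cytokine. Interleukin-1β and interleukin-18 are made as precursors, cut by caspase-1 in the inflammasome, and signal through Toll/IL-1 receptor domains and the adaptor MyD88, with *Il1r1* binding the cytokine and *Il1rap* completing the IL-1 receptor. *Il2rg*, *Il4r* and *Il13ra1* belong to the receptors of interleukins 4 and 13, in which *Il4r* pairs with either of the others and Janus kinases activate STAT6. *Il10ra* binds interleukin-10 and *Il10rb* is the accessory chain that the receptors of interleukin-10, interleukin-22 and the lambda interferons share. *Il17ra* is the common chain of the interleukin-17 receptors, which use the adaptor encoded by *Traf3ip2*. In the brain, microglia and other myeloid cells are the main source of interleukin-1β, and the cytokine acts on the hypothalamus to produce fever and loss of appetite.

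Expression was higher after RA for both cytokines and for the shared chains *Il17ra* and *Il10rb*. *Il1b* increased 2.47-fold, *Il18* 1.46-fold, *Il17ra* 1.35-fold and *Il10rb* 1.30-fold, whereas the other 5 genes with a probe did not pass the test. The test was limma on the log2 ratio of RA over vehicle, and a gene was called where its unadjusted p was under 0.01, as in the methods. Because no source states which arrays carry the same RNA with the dyes exchanged, limma was run for all 24 ways of pairing the arrays, and each gene has the largest p of these. A called gene is therefore under 0.01 in all 24 pairings by construction. By this rule 4 of the 9 genes were called, all of them higher, against 4.31% of all named genes called in either direction and 3.52% called higher. The genes were chosen with earlier results of these data known, so their share is a description and not a test. All 9 had a log2 fold change above 0, as did 47.6% of named genes, but *Il10ra* and *Il1rap* were below 0 with RA in Cy3 alone, *Il10ra*, *Il2rg* and *Il4r* in slide row 1 alone, and *Il10ra* also without background correction, with Agilent's log ratio and in the deposited values. Of the 9 genes, 2 were higher on all 8 arrays, as were 4.07% of named genes. The median log2 fold change of the 9 genes was 0.24, and that of all named genes was -0.00471. *Il10ra* is among the 9 although its probe was above background on no array, and the median of the other 8 was 0.31. After Benjamini-Hochberg adjustment over 30367 probes, limma left 0 of the 9 genes, and 0 of all named genes, with an adjusted p under 0.05. At an unadjusted p under 0.05 limma counted 5 of the 9 and 1979 named genes. The count of 4 fell to 1 without arrays 6 and 7 (*Il1b* was left), to 1 without arrays 8 and 5 (*Il18* was left), and to 1 with plain background subtraction or with Agilent's own log ratio.

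**Figure D1:**
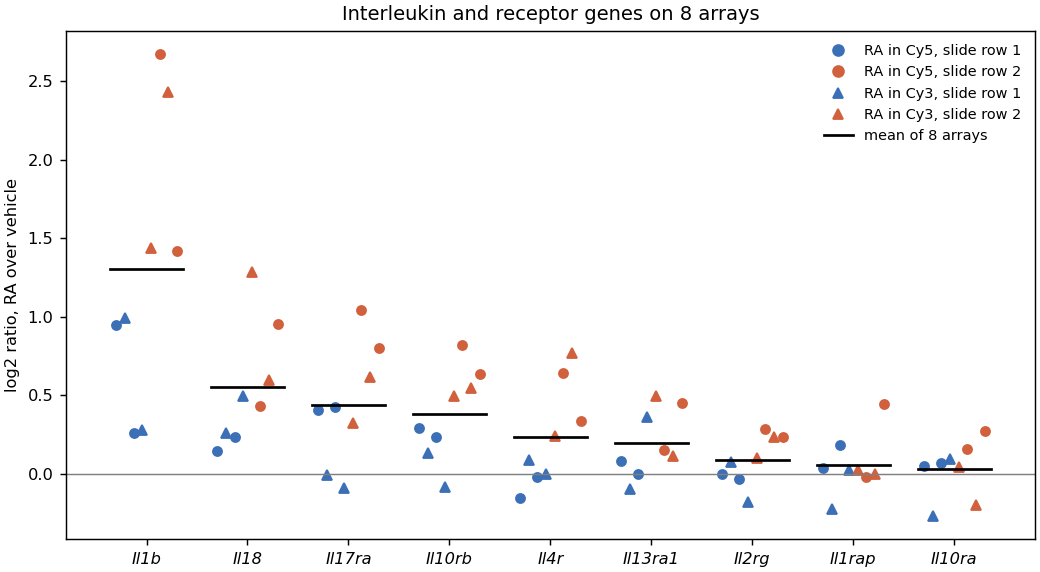
Log2 ratio of RA over vehicle (vertical axis) for the 9 interleukin and receptor genes with a probe (horizontal axis), 1 point per array. Circles are arrays with RA in Cy5, triangles arrays with RA in Cy3, blue is slide row 1 (arrays 1 to 4), red is slide row 2 (arrays 5 to 8), and the black bar is the mean of 8 arrays. All 8 points of *Il1b* and *Il18* lie above 0, *Il10ra* was not above background on any array, and for *Il1b* the red points lie between 1.42 and 2.67 and the blue points between 0.26 and 0.99.

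The arrays gave 62976 spots each, of which 58717 were not controls, and 57.4% to 74.6% of probes were well above background in RA RNA and 61.2% to 74.5% in vehicle RNA. Their number limits the precision of every value. The labelled tissue was checked by 14 neuropeptide and hypothalamic transcription factor genes, which were all well above background in both channels on all arrays. The arrays were not alike, because choroid plexus genes had a median log2 ratio of -1.38 on array 6 and -1.57 on array 7, against 0.07 to 0.49 on the others, and the hypothalamic genes had -0.59 on array 5 and -0.61 on array 8, against -0.02 to 0.24 on the others. The slide has rows, row 1 with arrays 1 to 4 and row 2 with arrays 5 to 8, and both dye orders are equally frequent in each.

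*Il1b* encodes the pro-inflammatory cytokine interleukin-1β. With RA in Cy5 its log2 ratios were 0.95, 0.26, 2.67 and 1.42 on arrays 1, 3, 6 and 8. With RA in Cy3 they were 0.99, 0.28, 1.44 and 2.43 on arrays 2, 4, 5 and 7. All 8 were above 0, arrays 6 and 7 were the highest and arrays 3 and 4 the lowest, and the means of the dye orders, 1.32 and 1.28, were close. Arrays 6 and 7 are also those with low choroid plexus genes (median log2 ratios of -1.38 and -1.57). Whether this difference in tissue bears on *Il1b* was not tested. The mean log2 fold change was 1.30 with a standard error of 0.31 and a 95% interval of 0.58 to 2.03, which is a fold of 1.49 to 4.09. The adjusted p from limma was 0.268 and the unadjusted p 0.00368, which was under 0.01 in 24 of 24 pairings. The normalised log2 intensity of its probe (A_43_P14911, printed 10 times) was 6.59 to 8.60 in the vehicle channel with a median of 6.88, and 6.92 to 11.27 in the RA channel with a median of 7.89. These ranges overlapped between channels, and arrays 6 and 7 were the brightest in both. The probe was well above background on all arrays in the RA channel and on 7 of 8 in the vehicle channel. Without arrays 6 and 7 the log2 fold change was 0.89, and the unadjusted p from limma passed 0.01 without arrays 1 and 5 (0.0107) and without arrays 8 and 5 (0.0148). The size of the change also depended on the background step. The log2 fold change was 1.97 with plain background subtraction and 2.03 with Agilent's log ratio, and 1.22 in the deposited values.

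The sequence before the start of *Il1b* is shown because this gene had the largest increase of the 9 and because it holds the letters of the TATA box motif. The 250 bases before the RefSeq start (GRCr8, chr3:137036582-137036831, minus strand, written 5′ to 3′) contain the motif TATAAA, in capitals, whose first base lies 60 bases before the start. The sequence of *Il4r* (GRCr8, chr1:189545525-189545774, plus strand) is shown because it alone among the promoters held the core motif of RA receptor binding sites, AGGTCA. There it stands on the reverse strand, as TGACCT in capitals, with its first printed base 44 bases before the start.
Il1b: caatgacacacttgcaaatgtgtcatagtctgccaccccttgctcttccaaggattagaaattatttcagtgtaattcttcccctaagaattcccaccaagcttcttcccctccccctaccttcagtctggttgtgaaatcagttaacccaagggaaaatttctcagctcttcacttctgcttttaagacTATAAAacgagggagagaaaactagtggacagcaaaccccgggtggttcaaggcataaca
Il4r: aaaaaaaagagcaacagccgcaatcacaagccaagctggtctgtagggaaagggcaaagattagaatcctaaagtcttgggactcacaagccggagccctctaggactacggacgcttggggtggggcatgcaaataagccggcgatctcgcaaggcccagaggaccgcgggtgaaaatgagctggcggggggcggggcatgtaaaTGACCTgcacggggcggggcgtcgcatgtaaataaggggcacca

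Of 33469 rat promoters of this length, 14.1% contain AGGTCA and 12.9% contain TATAAA on either strand. Promoters were listed for 9 of the 10 genes, *Il17ra* being the exception, and each motif occurred in 1 of them. *Il1b*, *Il18* and *Il10rb*, which were called higher after RA, do not have the letters AGGTCA in this window, and *Il4r*, which has them, was not called. Such a match describes the letters and is not evidence of binding.

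*Il18* encodes interleukin-18, which induces interferon gamma. Its log2 ratios were 0.15, 0.23, 0.43 and 0.95 on arrays 1, 3, 6 and 8 with RA in Cy5. With RA in Cy3 they were 0.26, 0.49, 1.28 and 0.59 on arrays 2, 4, 5 and 7. It was higher on all 8 arrays, with the largest ratios on arrays 5 and 8 and not on arrays 6 and 7 as for *Il1b*. Arrays 5 and 8 are also those with low hypothalamic genes (median log2 ratios of -0.59 and -0.61). Whether this difference in tissue bears on *Il18* was not tested. The mean log2 fold change was 0.55 with a standard error of 0.13 and a 95% interval of 0.23 to 0.87. The unadjusted p from limma was 0.00454, under 0.01 in 24 of 24 pairings, and the adjusted p from limma was 0.270. Its probe (A_44_P161233) was well above background in both channels on all arrays. Without arrays 8 and 5 the log2 fold change was 0.36 with the call kept, and the call was lost without arrays 6 and 4 (unadjusted p of 0.0125 from limma) and without arrays 6 and 7 (unadjusted p of 0.0152 from limma).

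*Il1rap*, the accessory chain of the IL-1 receptor, had log2 ratios of 0.04, 0.18, -0.02 and 0.44 on arrays 1, 3, 6 and 8. On arrays 2, 4, 5 and 7 they were -0.23, 0.02, 0.02 and -6.83e-04. Of these 5 were above 0, and array 8 alone stood over 0.20 in size on the high side and array 2 on the low side. The log2 fold change was 0.06 with a standard error of 0.06 and an interval of -0.09 to 0.20, and limma gave an unadjusted p of 0.390. Arrays with RA in Cy5 averaged 0.16 and those with RA in Cy3 averaged -0.05. The probe (A_64_P134370) was above background on 7 arrays in the RA channel and 8 in the vehicle channel, and a second probe for another transcript of the gene was above background on 0 arrays. The upper bound of *Il1rap* was thus below the lower bound of *Il1b*, 0.58, on this scale.

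*Il17ra* had log2 ratios of 0.40, 0.43, 1.04 and 0.80 on arrays 1, 3, 6 and 8 with RA in Cy5. On arrays 2, 4, 5 and 7, with RA in Cy3, they were -0.01, -0.09, 0.32 and 0.62. The ratio was above 0 on 6 of 8 arrays, highest on array 6, and higher in Cy5 (mean 0.67) than in Cy3 (mean 0.21). The log2 fold change was 0.44 with a standard error of 0.11 and a 95% interval of 0.18 to 0.70. Limma gave an unadjusted p of 0.00531, under 0.01 in 24 of 24 pairings, and an adjusted p of 0.280. The probe (A_64_P046853) was above background in both channels on all arrays, with log2 intensities of 9.84 to 11.45 in vehicle and 10.16 to 12.38 in RA, so that the ranges overlapped. The call was lost without array 6 or 8 together with array 5 or 7 (unadjusted p of 0.0118 to 0.0254 from limma, log2 fold change 0.31 to 0.40).

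*Il10rb* had log2 ratios of 0.29, 0.23, 0.82 and 0.63 on arrays 1, 3, 6 and 8. Its ratios on arrays 2, 4, 5 and 7 were 0.13, -0.09, 0.49 and 0.55. Array 4 alone was below 0, and arrays 6 and 8 were the highest. The log2 fold change was 0.38 with a standard error of 0.10 and a 95% interval of 0.14 to 0.62, the unadjusted p from limma was 0.00657, under 0.01 in 24 of 24 pairings, and the adjusted p from limma was 0.288. The probe (A_64_P028803) was above background in both channels on all arrays. Of the 16 fits without an array of each dye order, 7 kept the call, and the largest unadjusted p from limma, 0.0321, came without arrays 8 and 5, where the log2 fold change was 0.32. *Il10ra*, the chain that binds interleukin-10, was not well above background on any array in either channel, so its ratio is not read as a fold. The gene of interleukin-10 itself, *Il10*, was likewise above background on 0 arrays.

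**Figure D2:**
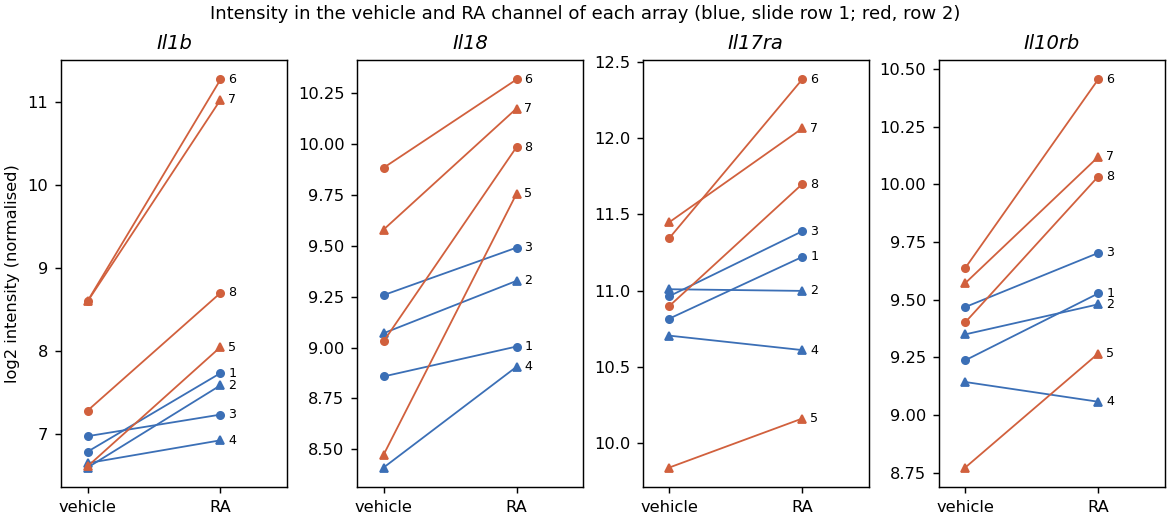
Normalised log2 intensity (vertical axis) of the probes of *Il1b*, *Il18*, *Il17ra* and *Il10rb* in the vehicle and the RA channel, with a line joining the channels of each numbered array. Circles have RA in Cy5, triangles RA in Cy3, blue is slide row 1 and red slide row 2, and each panel has its own scale, since levels of different probes cannot be compared. For *Il1b*, arrays 6 and 7 start highest, near 8.60 in vehicle, and also rise most, and for *Il17ra* and *Il10rb* the line of array 4 falls.

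Of the receptors for interleukins 4 and 13, none passed the test. *Il4r* had log2 ratios of -0.16, -0.02, 0.64 and 0.33 on arrays 1, 3, 6 and 8, and of 0.09, -0.00198, 0.24 and 0.77 on arrays 2, 4, 5 and 7. The arrays of slide row 1 lay around 0 and those of slide row 2 were all above it, with arrays 6 and 7 highest. The log2 fold change was 0.24 with a standard error of 0.12 and an interval of -0.05 to 0.52. Its largest unadjusted p from limma was 0.0901, and in 9 of 24 pairings it was under 0.01, so that the call depends on which arrays share RNA. A dimmer second probe of *Il4r* had a log2 fold change of 0.08 and was above background on 4 arrays in the RA channel and 1 in the vehicle channel.

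*Il13ra1*, which with *Il4r* forms the receptor of interleukin-13, had log2 ratios between -0.10 on array 2 and 0.49 on array 5, with a median of 0.13. It was above 0 on 6 of 8 arrays, and arrays 4, 5 and 8 stood above the rest. The log2 fold change was 0.19 with a standard error of 0.08, and a second probe gave 0.13. The largest unadjusted p from limma was 0.0496, and as for *Il4r* it was under 0.01 in 9 of 24 pairings. *Il2rg*, the common gamma chain of the receptors of interleukins 2, 4, 7, 9, 15 and 21, had log2 ratios between -0.18 on array 4 and 0.28 on array 6, with a median of 0.09. Its log2 fold change was 0.09 with a standard error of 0.07 and an interval of -0.07 to 0.25 and limma gave an unadjusted p of 0.228. The probes of *Il13ra1*, *Il2rg* and *Il4r* used here were above background in both channels on all arrays.

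The ratios were larger in the second row of the slide. Over the 9 genes, the median log2 ratio was 0.08, 0.07, 0.18 and 0.02 on arrays 1 to 4 and 0.32, 0.43, 0.55 and 0.45 on arrays 5 to 8. *Il1b* was 1.54-fold higher after RA in row 1 and 3.97-fold in row 2, *Il17ra* 1.13-fold and 1.62-fold, and *Il10rb* 1.10-fold and 1.54-fold. For *Il18* the mean log2 ratio was 0.28 in row 1 and 0.82 in row 2, and for *Il4r* -0.02 and 0.49. The 8 arrays reuse the RNA of 4 rats per group, so the difference between rows was tested in limma on pair means within rows, a test chosen after the data had been seen. No gene of the 9 passed it after adjustment, the adjusted p from limma being 0.252 for *Il10rb*, 0.290 for *Il17ra*, 0.439 for *Il1b*, 0.488 for *Il4r* and 0.635 for *Il18*. A fit of all 8 arrays as independent, with dye as a term, gave smaller values, with adjusted p from limma of 0.0160 for *Il10rb*, 0.0199 for *Il17ra*, 0.0563 for *Il1b*, 0.0726 for *Il4r* and 0.157 for *Il18*, and called 6.24% of named genes at an unadjusted p under 0.01. These are too small where arrays of a row share RNA. The sources used here do not state which arrays do, but the choroid plexus gene *Ttr* had log2 ratios of 1.76 and 1.74 on arrays 1 and 2, 0.73 and 0.57 on arrays 3 and 4, 1.21 and 1.37 on arrays 5 and 8, and -4.48 and -5.11 on arrays 6 and 7, so that the arrays most alike in it lay in the same row with opposite dyes. The rat and the slide row cannot be told apart.

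Across the 8 arrays *Il10rb* followed *Il17ra* (Pearson's r = 0.93) and *Il2rg* (r = 0.93), and *Il1b* followed *Il4r* (r = 0.91). *Il18* followed *Il13ra1* (r = 0.86) and was little related to *Il1b* (r = 0.27) or *Il17ra* (r = 0.17). These values describe 8 arrays that reuse the same RNA and share the slide rows, and no test was made of them. Among 9462 genes well above background on all arrays, *Il10rb* was most like *Ctsb*, the lysosomal protease cathepsin B, and *Tacc3* and *Ugt1a6* (r = 0.98 each). *Il17ra* was most like *Snx18*, *Golt1b* and *Pdpn* (r = 0.98 or above). *Il18* was most like *Oaf*, *Cerk* (r = 0.97 each) and *Tmem229b* (r = 0.96). Of the 9463 genes set against *Il1b*, *Serpinb1a*, *Hlx* and *Tgfbi* were closest (r = 0.98 to 0.99). A likeness over arrays is not a rise after RA, because the log2 fold changes of *Golt1b* (0.06), *Cerk* (0.04) and *Tmem229b* (-0.02) were near 0. Those of the other genes named as most like lay between 0.23 for *Snx18* and 0.99 for *Pdpn*. Genes with r over 0.9 numbered 132 for *Il10rb*, 125 for *Il17ra*, 54 for *Il18* and 140 for *Il1b*.

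The ligands, other receptors, antagonists and signalling genes of these 4 families were listed by their textbook roles, with earlier results of these data known. The share called among them is therefore a description and not a test of the list. Of 95 listed genes 82 had a probe, and 12 of them (14.6%) were called higher and 0 lower, against the 3.52% of named genes called higher. Their median log2 fold change was 0.06, and 62 of the 82 were above 0. Of the 12, 1 encodes a receptor (*Ifngr1*) and 0 encode ligands, and the others are antagonists or binding proteins or act in cytokine processing and signalling.

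In the IL-1 family 6 of 29 measured genes rose. *Il1rn*, the antagonist that occupies the IL-1 receptor, increased by 1.58 ± 0.41 (standard error) on the log2 scale. Like *Il1b* it was highest on array 6 (3.23) and array 7 (2.98), but on array 4 it was at -7.20e-04 and on array 3 at 0.03. *Il18bp*, the binding protein that neutralises interleukin-18, increased by 0.52 on the log2 scale, close to the 0.55 of *Il18*. Of the inflammasome and caspase genes, the inflammasome adaptor *Pycard* increased by 0.98 and the inflammatory caspase gene *Casp4* by 0.74. *Casp1*, the enzyme that cuts both precursors, increased by 0.63, and each of these genes was higher on all 8 arrays. The adaptor *Myd88* increased by 0.61. The unadjusted p from limma for these 6 genes lay between 4.48e-04 for *Pycard* and 0.00592 for *Il1rn*, and the adjusted p between 0.222 and 0.283. The inflammasome gene *Nlrp3* was at 0.09 and did not pass (unadjusted p of 0.0825 from limma). Its probe was above background on 2 arrays in the RA channel and 0 in the vehicle channel. The other ligands did not pass the test, *Il33* having a log2 fold change of 0.18 and *Il1a* of 0.24, and of the 6 measured, 3 were above background on no array. None of 7 other receptors passed, *Sigirr* being at 0.22, *Il1rapl2* at -0.09 and *Il1rapl1* at -0.04. Among these 7 the decoy receptor *Il1r2*, singled out after its values were seen, had the highest log2 fold change, 0.57, with an unadjusted p of 0.0208 from limma, and was above background on 5 arrays in the RA channel and 2 in the vehicle channel. *Il36rn*, the antagonist of the interleukin-36 receptor, was at -0.15 and below 0 on all 8 arrays, with an unadjusted p of 0.0172 from limma. The inhibitor *Tollip* (-0.03) and the kinase adaptor *Tab1* (-0.03) were near 0.

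**Figure D3:**
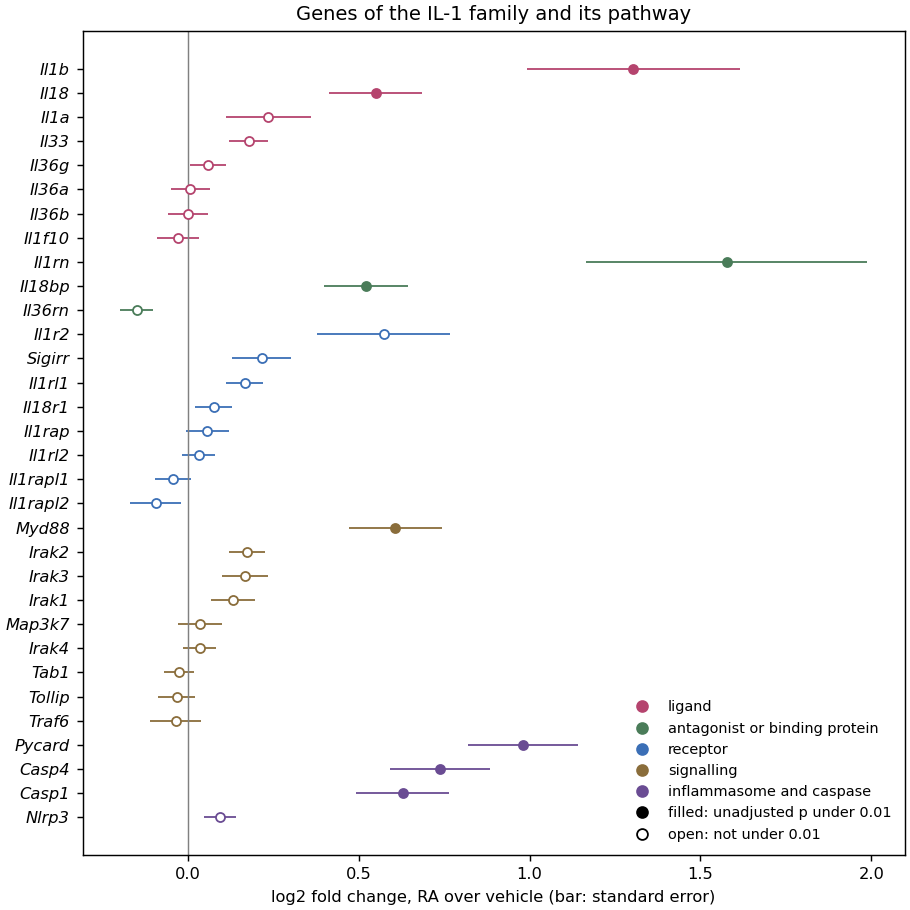
Log2 fold change of RA over vehicle with its standard error (horizontal axis) for the 29 other measured genes of the IL-1 family and its pathway and for *Il1b*, *Il18* and *Il1rap* (vertical axis), coloured by role. Filled points have an unadjusted p under 0.01 in limma, as for *Il1b* (1.30), *Il18* (0.55), *Il1rn* (1.58), *Il18bp* (0.52), *Myd88* (0.61) and *Pycard* (0.98), and open points, which include the receptors, do not.

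Of 23 measured genes of the common gamma chain and IL-4/IL-13 receptors, 1 rose, a share close to the 3.52% of all named genes, so that the count says nothing particular of this family. The gene was *Jak3*, the kinase that binds the common gamma chain, whose log2 fold change was 0.85, with a standard error of 0.20 and an unadjusted p of 0.00319 from limma. It ran from -0.07 on array 1 to 1.43 on array 7, and was above 1 on arrays 5 to 8 alone. The receptor gene *Crlf2* (0.06), the adaptor *Irs2* (-0.09) and the kinase *Jak1* (0.11) did not pass, and of the 7 ligands measured, 4 were above background on no array. *Il21r* was at 0.39 with an unadjusted p of 0.0289 from limma and was above background on 6 arrays in the RA channel and 2 in the vehicle channel.

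For the family of *Il10ra* and *Il10rb*, which includes the interferon receptors, 3 of 18 measured genes rose. *Ifngr1*, the ligand-binding chain of the interferon gamma receptor, increased by 0.26 on the log2 scale (unadjusted p of 0.00682 from limma). *Stat3*, the transcription factor downstream of the interleukin-10 receptor and of many other cytokine receptors, increased by 0.51, and *Bcl3*, a nuclear partner of NF-κB, by 1.31, both on all 8 arrays. *Ifngr2* (0.24) and *Ifnar1* (0.12) did not pass. In the IL-17 family 2 of 14 measured genes rose, and both encode transcription factors of the acute phase response that many cytokines induce. *Cebpd* had a log2 fold change of 1.56 with an unadjusted p of 3.00e-04 from limma, and *Cebpb* one of 0.94 with 0.00628, both higher on all 8 arrays. *Traf3ip2*, the adaptor that *Il17ra* uses, was at -0.01 and the receptor *Il17re* at 0.05. *Il17a* was at 0.40 with an unadjusted p of 0.0662 from limma, and was above background on 3 arrays in the RA channel and 1 in the vehicle channel.

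Interleukins and their receptors are expressed by microglia and by blood leukocytes, and in tissue blocks more cells of a type and more RNA per cell cannot be told apart. The lists of cell type genes were also chosen with earlier results known, so shares called in them are no test. Of 11 measured genes of monocytes, macrophages and neutrophils, 4 were called higher (*Plac8*, *Lyz2*, *S100a9* and *Cd68*), against 3.52% of all named genes. All 11 were above 0 and their median log2 fold change was 0.74. Their median by array was 0.28, 0.36, 0.05 and 0.18 on arrays 1 to 4 and 0.57, 1.25, 0.69 and 0.77 on arrays 5 to 8, the rows in which the interleukin and receptor genes also differed. Their summed intensity was 8824 to 56687 in the RA channel and 5798 to 14877 in the vehicle channel. *Lyz2* was the brightest of the 11, with mean log2 intensities of 14.05 in RA and 12.75 in vehicle. The others were at most at 10.74 and 8.80, so the sum mostly follows *Lyz2*. Of the 11, 6 were not above background in both channels on all arrays, *Ccr2* being above it on 1 array in RA and 0 in vehicle. Of 8 measured genes of T and B cells, 0 were called by limma at an unadjusted p under 0.01 (4 had one under 0.05), the median was 0.18, and the summed intensity was 806 to 1745 in RA and 751 to 1103 in vehicle. Of these *Cd79b* was above background on no array, and 7 of the 8 were not above it on all. Of 11 measured microglial genes, all above background on all arrays, 3 were called higher and 1 lower with a median of -0.02, and the summed intensity was 19037 to 66626 in RA and 12980 to 47105 in vehicle. *C1qa* (0.83), *Aif1* (0.88) and *Itgam* (0.87) were higher, whereas *Tmem119* (-0.52) was lower, and the other 7, which did not pass, lay between -0.34 for *Trem2* and 0.37 for *Csf1r*. Astrocyte, endothelial, neuronal and tanycyte or ependymal genes had medians of -0.12, -0.06, -0.08 and 0.05. These medians do not show the single genes that were called. Of 8 measured astrocyte genes, *Gfap* was higher on all 8 arrays (1.40, unadjusted p of 1.77e-04 from limma) and *Gja1* was lower (-0.22). Of 6 measured tanycyte or ependymal genes, *Vim* was higher (0.62). No gene of the endothelial or neuronal lists was called. Of the 14 measured hypothalamic genes, *Cartpt* was lower (-0.42, unadjusted p of 0.00198 from limma). The part of these cells in the increases of *Il1b*, *Il18*, *Il17ra* and *Il10rb* was not tested.

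**Figure D4:**
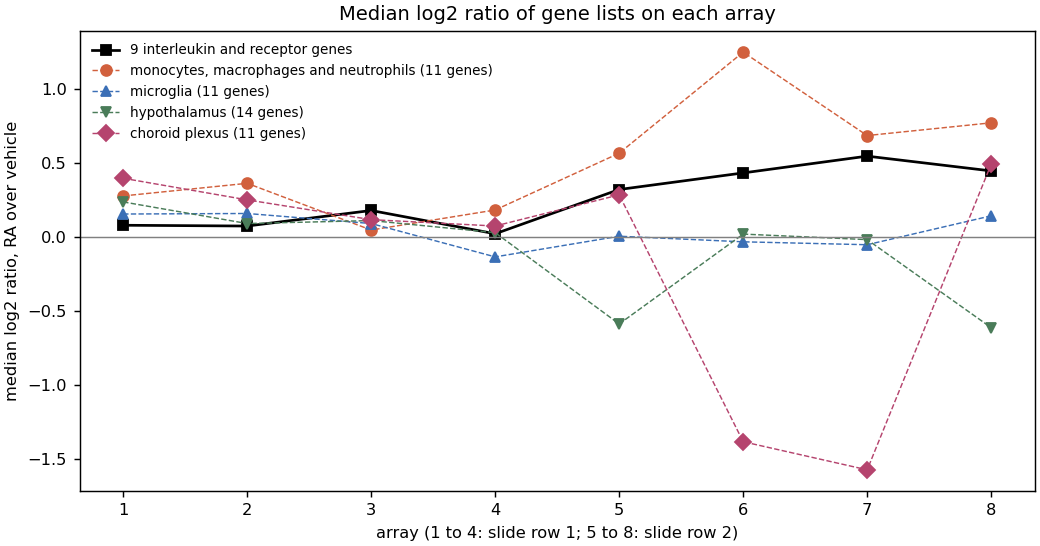
Median log2 ratio of RA over vehicle (vertical axis) on each array (horizontal axis) for the 9 interleukin and receptor genes and for lists of monocyte, macrophage and neutrophil, microglial, hypothalamic and choroid plexus genes. Lines only join the medians of a list. The interleukin and receptor genes lie at 0.02 to 0.18 on arrays 1 to 4 and at 0.32 to 0.55 on arrays 5 to 8, the myeloid list is highest on array 6 (1.25), and the choroid plexus list falls to -1.38 and -1.57 on arrays 6 and 7.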

How the data were processed

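The authors deposited, per array, linear intensity values of every spot in both dyes, read by Agilent Feature Extraction 10.7.3.1, and Agilent's log10 ratio of the dyes. A table of normalised log2 ratios of RA over vehicle, made with limma and loess, was also deposited. No gene descriptions or coordinates were used from these files.

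Data were processed in R 4.3.3 with limma 3.58.1. Median intensities were corrected by normexp (offset of 50), outlier spots were left out, loess was applied within arrays and spots of a probe were averaged. Log2 ratios were turned so that positive values are higher after RA. Above background means that a fraction of at least 0.5 of a probe's spots carried Agilent's mark. Limma was fitted to 4 pair means per probe, each pair joining both dye orders, and the largest p over 24 pairings was kept with its standard error and interval. The 8 arrays stand for 4 rats per group, so they are not independent. Symbols came from unversioned accessions matched to RefSeq genes (GRCr8), which named 18006 of 30367 probes (59.3%). The brightest probe stood for a gene.

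The genes and lists were chosen with earlier results of these data known. The text names all listed interleukin and receptor genes and, per pathway list, those with an unadjusted p under 0.01 and up to 3 of the brightest per role. The microglial genes, the called genes of the myeloid, astrocyte, hypothalamic and tanycyte or ependymal lists, *Ccr2*, *Cd79b* and *Ttr* were named after their values had been seen. For each called gene the 3 genes with the highest correlation were named. On simulated arrays with 30347 probes, of which 200 were changed, a change of 0.5 (log2) was called in 98% of cases, and 0.580% of unchanged probes were called. The changed probes were drawn at random, so this checks the computation and is not the power for genes that vary more between arrays, such as *Il1b*.

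Alternatives covered background correction, Agilent's log ratio, the deposited ratios, scaling, dim probes, outlier spots, blocks, pairings, dye orders, slide rows, all probes of a gene, and leaving out an array of each dye order. An exact two-sided sign-flip test of 4 pair means cannot give a p below 0.125 and was not used.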

Additional observations from a re-analysis of the deposited data

Results flagged for a closer look

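Dixon's test was applied to 20 groups of 4 arrays of the same dye order, and it singled out 1, where chance gives about 1 in 20. That was *Il1rap*, whose log2 ratio on array 2 was -0.23, while the other arrays with RA in Cy3 gave -6.83e-04 to 0.02.

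In a limma fit of 8 arrays as independent, the change after RA differed between the rows of the slide for *Il10rb*, whose mean log2 ratio was higher by 0.48 in row 2 (0.14 in row 1 and 0.62 in row 2), and for *Il17ra*, higher by 0.51 in row 2 (0.18 and 0.69). In that fit 492 of 30367 probes had an adjusted p under 0.05 for such a difference. On pair means within rows, which allow for RNA used on more than 1 array, 22 probes had one, and neither gene was among them (adjusted p of 0.252 and 0.290 from limma).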

How the results depend on the processing

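Of 18 alternatives that keep or split all arrays, 14 gave a number of called genes within 1.5 times the 4 reported. The number was 1 with plain background subtraction and 1 with Agilent's log ratio, under which 237 and 330 of all probes passed in place of 988, and it was 2 with RA in Cy3 only and 2 in slide row 1 only, whereas it was 4 with RA in Cy5 only and 5 in slide row 2 only. In 16 leave-one-out fits without an array of each dye order it was 1 to 4. It was 2 without arrays 1 and 5, without arrays 6 and 5 and without arrays 8 and 7. The median log2 fold change of the 9 genes was 0.49 in slide row 2 alone, 0.08 to 0.49 over these alternatives, and 0.16 to 0.34 in the leave-one-out fits. *Il1b* kept its call in 18 of 18 alternatives and 14 of 16 leave-one-out fits, *Il18* in 16 and 14, *Il17ra* in 14 and 12 and *Il10rb* in 13 and 7, and none of these 4 changed direction. Some of the 18 could hardly remove a call, which also limits the count of 14. A single pairing cannot exceed the largest p of all pairings, and scaling of average intensities left the log2 fold changes unchanged. Fits of 8 arrays as independent, or with slide row as a block, kept them too. Their p are too small where arrays share RNA. If arrays alike in *Ttr* share RNA, a whole pair is left out only without arrays 1 and 2, 3 and 4, 8 and 5, or 6 and 7. In such fits *Il1b* lost its call without arrays 8 and 5, *Il18* without arrays 6 and 7 and *Il17ra* without either pair. *Il10rb* kept its call only without arrays 3 and 4. The log2 ratio of *Il10ra*, not read as a fold because its probe was never above background, went below 0 without background correction (-0.00394), with Agilent's log ratio (-0.0668), with the deposited values (-0.00366), with RA in Cy3 only (-0.0828) and in slide row 1 (-0.0155), and ran from -0.0250 to 0.0721 in leave-one-out fits. With RA in Cy3 only *Il1rap* was at -0.0458, and in leave-one-out fits at -0.00135 to 0.12. In slide row 1 *Il2rg* was at -0.0362 and *Il4r* at -0.0233. The causes were not tested. With pairs as a random block, 4 genes were called. For *Il10ra* there was no value among bright probes only. Signals near background limit what can be said of *Il10ra*.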
